A study of Homo sapiens with 3 samples.

Results

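Tyrosinase (TYR) and tyrosinase-related protein 1 (TYRP1) are enzymes of melanin synthesis, and their transcripts were followed in SK-Mel-28 cells, a long-established line from human melanoma. The genes were taken as all probe sets that the platform annotation assigns to TYR, TYRP1 or DCT. This gave 3 probe sets for TYR and 1 for TYRP1, or 2 of the 19775 genes named on the array. DCT, the third enzyme of the family, was not analysed here. Total RNA was hybridised to Affymetrix Human Genome U133 Plus 2.0 arrays, on which a probe set is a group of short oligonucleotides that read a transcript together. The 1 control array carried RNA of cells with a stably transfected pSilencer 3.1-H1 neo vector that expresses a scrambled hairpin. The 2 siRNA arrays carried RNA of cells with the same vector, also stably transfected, whose hairpin targets melanotransferrin (MTf; its gene is MELTF), an iron-binding protein of the cell surface. The sample labels place its target at nucleotides 2048 to 2066 of the transcript, and the series' design text gives another position. The labels call these arrays B1 and B2 (siRNA array 1 and siRNA array 2 here) without stating if these are different clones or cultures, so that each p-value reflects no more than the variation among these arrays, some or all of which may be technical.

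Melanin is made inside melanosomes, lysosome-related organelles of pigment cells. TYR, a copper enzyme, oxidises tyrosine and dopa to dopaquinone, the rate-limiting step for both brown-black eumelanin and red-yellow pheomelanin. DCT (dopachrome tautomerase) and TYRP1 act further along the eumelanin branch, and TYRP1 is an abundant melanosomal membrane glycoprotein that also affects the stability of TYR. The melanocyte transcription factor MITF is known to bind E-box motifs of the CATGTG type in the promoters of these genes, and loss of either enzyme causes forms of oculocutaneous albinism.

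The promoters of both genes are shown because they share this motif, although TYRP1 fell and a TYR probe set rose. The sequences come from RefSeq (GRCh38.p14), and both genes were matched there. They cover the 250 bases upstream of the start, 5′ to 3′ on the strand of the gene, at chr11:89177625-89177874 (plus strand) for TYR and chr9:12693135-12693384 (plus strand) for TYRP1. Capitals mark CATGTG, or CACATG where it lies on the opposite strand.
TYR: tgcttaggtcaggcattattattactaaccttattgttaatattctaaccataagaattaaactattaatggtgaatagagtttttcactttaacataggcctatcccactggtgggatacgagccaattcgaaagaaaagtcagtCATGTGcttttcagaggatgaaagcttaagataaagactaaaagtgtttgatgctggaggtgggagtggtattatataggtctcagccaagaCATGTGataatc
TYRP1: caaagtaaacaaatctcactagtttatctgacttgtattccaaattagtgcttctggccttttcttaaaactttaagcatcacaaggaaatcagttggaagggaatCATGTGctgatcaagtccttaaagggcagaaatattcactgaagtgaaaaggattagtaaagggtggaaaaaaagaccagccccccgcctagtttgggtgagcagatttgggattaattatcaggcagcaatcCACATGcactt
Each promoter held CATGTG 2 times. In TYR the matches began 104 and 12 bases upstream of the start, both on the strand of the gene. In TYRP1 they began 144 bases upstream on the strand of the gene and 11 bases upstream on the opposite strand. The distal match in each gene was preceded by T, giving TCATGTG, the core of the M-box, an element named for its role in melanocyte promoters. Every TCATGTG contains a CATGTG, so the counts for these motifs overlap. Of all 35116 RefSeq promoter windows of 300 bases (250 upstream, 50 downstream), 11.1% held CATGTG and 2.92% held TCATGTG on either strand. The related E-box CACGTG was in 7.26% of windows, with 0 matches in TYR and 0 in TYRP1. A match describes the letters of the window and was not tied to binding by any measurement here.

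The deposited values are linear signals, which had been scaled so that each array has nearly the same mean after trimming 2% of values at each end (999.9 on each). Differences are given on the scale log2(signal + 47.4), siRNA mean minus scrambled. Of 54613 probe sets, 27306 had a mean log2 value above the median and were tested with limma, and a call means a Benjamini-Hochberg adjusted p under 0.05. With 1 array against 2 the number of arrays sets the precision, and an exact permutation test of a single value cannot go below p = 0.333. The targeted gene, MELTF, had signals of 32608 (scrambled), 18968 (siRNA array 1) and 18974 (siRNA array 2) in its brightest probe set (log2 difference -0.78 ± 0.17, SE; limma adjusted p = 0.0699), while 2 of its 4 probe sets were higher on both siRNA arrays (8284 against 10567 and 11199, and 546.4 against 693.7 and 665.7). None of the 4 passed, and their mean differed by -0.26 ± 0.23 (SE; limma adjusted p = 0.605). GAPDH control probe sets gave a 3'-to-5' signal ratio of 1.03 (scrambled) and 1.01 (both siRNA arrays). Those of actin gave 2.00 (scrambled), 1.77 (siRNA array 1) and 1.87 (siRNA array 2).

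TYRP1 fell in the siRNA cells, with the larger change of the 2 enzymes. Its only probe set (205694_at) had a signal of 53204 in scrambled cells, 5022 on siRNA array 1 and 12370.0 on siRNA array 2, or 8696 ± 5196 in the siRNA cells (SD, n = 2). Both siRNA signals were lower, at 9.44% and 23.3% of the scrambled signal. TYRP1 fell by 2.75 on the log2 scale, a 6.71-fold drop (SE 0.45, 95% interval -3.80 to -1.69; limma adjusted p = 0.0374). Counting itself, 25 of the 27306 tested probe sets were at least as low. All signals lay far above the highest bacterial trp control, 97.2, so that the pseudocount has little weight here.

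The size of the TYRP1 change differed between the siRNA arrays. The log2 difference was -3.39 on the first and -2.10 on the second, a gap of 1.29, and 1.58% of tested probe sets had a gap at least as large. The control probe sets for ribosomal RNA had a median ratio to the scrambled array of 3.76 on siRNA array 1 and 1.06 on the other. Their part in the TYRP1 result was not tested. The decrease was at least 4-fold on either array taken alone, but its call was lost under several settings. Adjusted p was 0.0521 with robust moderation, 0.0537 with quantile normalization and 0.0702 with a filter at the 75th percentile. It was 0.164 without a filter and 0.161 without a trend of the spread on signal.

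**Figure D1:**
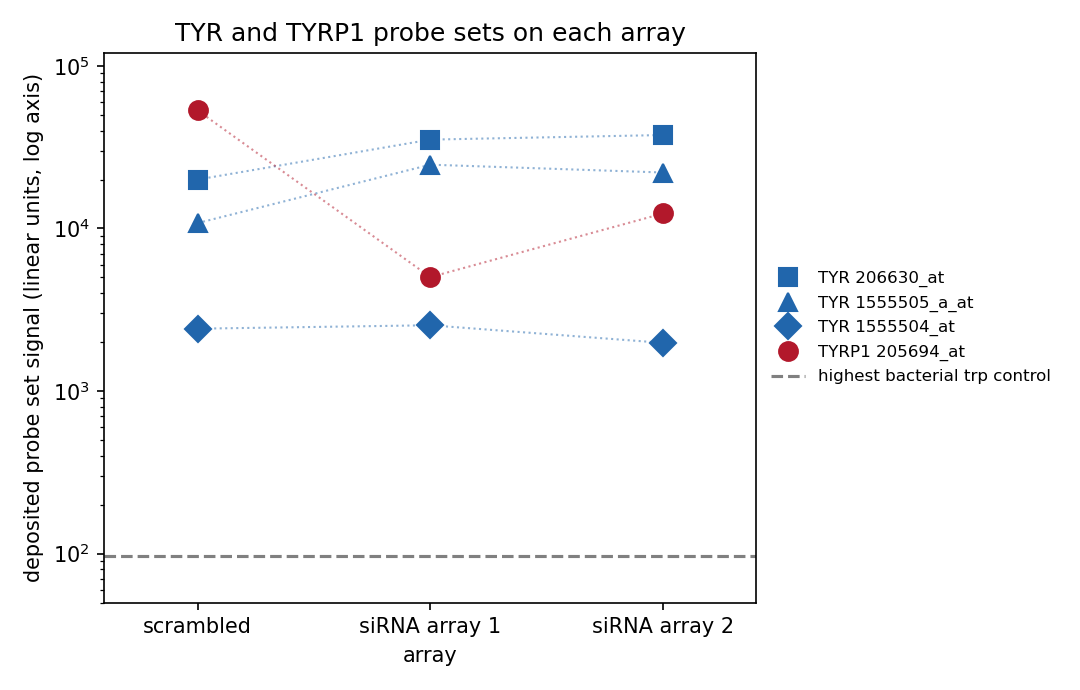
Deposited signal of each TYR (blue) and TYRP1 (red) probe set on the scrambled array and on both siRNA arrays, on a log axis, 1 point per array, with thin dotted lines joining the points of a probe set and a dashed line at the highest bacterial control signal (97.2). TYRP1 fell from 53204 to 5022 and 12370.0, while TYR probe sets 206630_at and 1555505_a_at were higher on both siRNA arrays.

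TYR was higher in the siRNA cells in 2 of its 3 probe sets, of which 1 passed the threshold. The brightest (206630_at, annotated to NM_000372) gave signals of 19988 (scrambled), 35193 (siRNA array 1) and 37555 (siRNA array 2), with a siRNA mean of 36374 ± 1670 (SD, n = 2). Both siRNA values lay above the scrambled value, at 176.1% and 187.9% of it, and differed by only 0.094 on the log2 scale. The difference of 0.86 ± 0.17 (SE; 95% interval 0.47 to 1.26) just missed the threshold by limma (adjusted p = 0.0529). It passed with robust moderation (adjusted p = 0.0472), with quantile normalization (0.98, adjusted p = 0.0310) and with arrays centred on their medians (0.69, adjusted p = 0.0179). It lay further from the threshold with pseudocount 200 (adjusted p = 0.0591), the 75th percentile filter (0.0702), no filter (0.223) and no trend (0.225).

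The second TYR probe set (1555505_a_at, annotated to the cDNA BC027179) rose. Its signals were 10796 (scrambled), 24678 (siRNA array 1) and 22086 (siRNA array 2), with a siRNA mean of 23382 ± 1833 (SD, n = 2). Both siRNA signals were more than double the scrambled signal, at 228.6% and 204.6%. The increase was 1.11 ± 0.19 on the log2 scale (SE; 95% interval 0.68 to 1.54), or 2.16-fold (limma adjusted p = 0.0383). This call was lost with a filter at the 75th percentile (adjusted p = 0.0641), without a filter (0.164) and without the trend (0.188). In Affymetrix naming the ending _a_at marks a probe set that reads alternative transcripts of a single gene.

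The dimmest TYR probe set (1555504_at) is annotated to the same cDNA but was not called. Its signals were 2419 (scrambled), 2539 (siRNA array 1) and 1979 (siRNA array 2), with a siRNA mean of 2259 ± 396 (SD, n = 2), so that the siRNA values lay on both sides of the scrambled value. The log2 difference was -0.11 ± 0.26 (SE; limma adjusted p = 0.868). Its 95% interval, -0.72 to 0.51, ended below the estimates of both other TYR probe sets. Within an array, 1555505_a_at shifted against 1555504_at by 1.12 (siRNA array 1) and 1.31 (siRNA array 2) on the log2 scale, and 206630_at shifted against it by 0.75 and 1.19. By contrast, 1555505_a_at and 206630_at shifted against each other by 0.37 and 0.12. These shifts are descriptions with no test. The RefSeq gene table also holds TYRL, a pseudogene that resembles the 3' part of TYR, and whether any of these probe sets reads it was not tested. The mean of the 3 TYR probe sets differed by 0.62 ± 0.19 (SE; limma adjusted p = 0.146).

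Of the 4 probe sets of both genes, all passed the filter and 2 were called, 1 higher (TYR) and 1 lower (TYRP1), where 2.09% of all tested probe sets were called (1.19% higher and 0.905% lower). By brightest probe set 1 of the 2 genes was called, TYRP1, against 2.64% of 12386 genes. TYRP1 was at least 2-fold lower on both siRNA arrays, as were 1.83% of tested probe sets, and TYR 1555505_a_at at least 2-fold higher on both, as were 3.93%. Within each array the balance of the transcripts shifted from TYRP1 towards TYR. Relative to TYR 206630_at, TYRP1 shifted by -4.21 (siRNA array 1) and -3.01 (siRNA array 2) on the log2 scale, each set against the scrambled array. This was an 18.5-fold and an 8.05-fold shift. Against TYR 1555504_at, which was not called, the shift was still 11.0-fold and 3.52-fold. Multiplying a whole array by a factor leaves such shifts unchanged except through the pseudocount. They compare changes, since the levels of different probe sets cannot be set against each other. In RNA from whole cultures, fewer cells that hold a transcript and less of it per cell cannot be told apart.

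**Figure D2:**
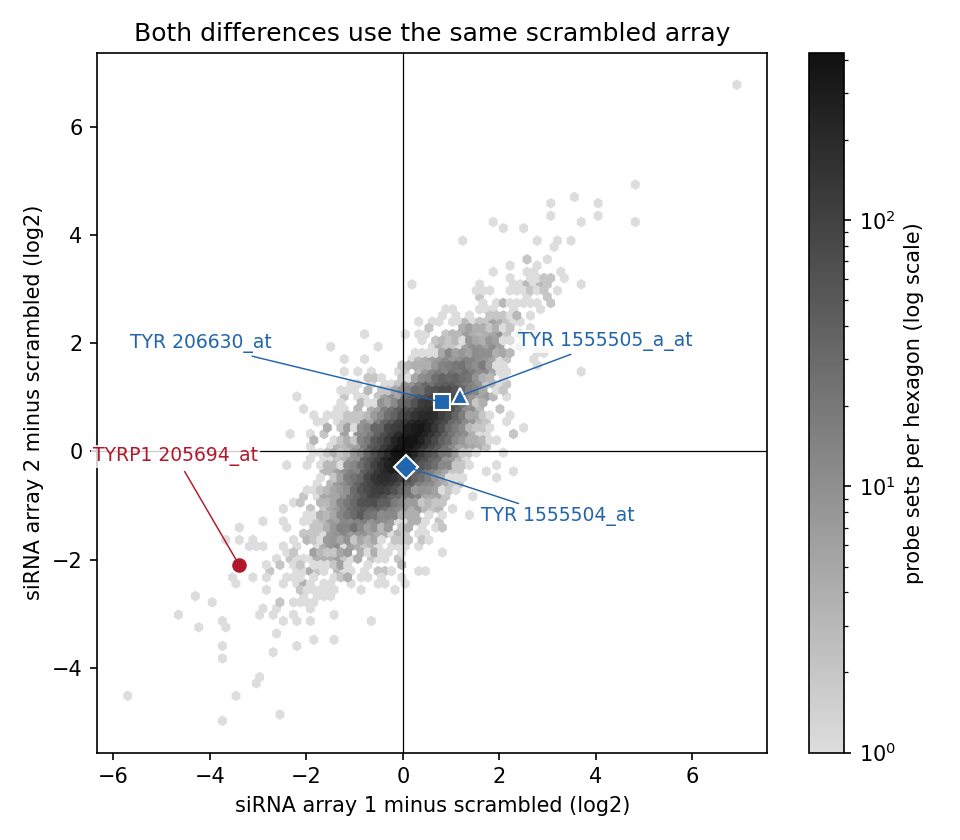
Log2 difference from the scrambled array on siRNA array 1 (horizontal) and siRNA array 2 (vertical) for the 27306 tested probe sets, with darker hexagons holding more probe sets, the TYR probe sets in blue and TYRP1 in red. TYRP1 lies at -3.39 and -2.10 at the sparse lower left edge, whereas TYR 206630_at (0.81 and 0.91) and 1555505_a_at (1.19 and 1.03) lie inside the dense cloud. Both axes use the same scrambled array, so part of the slope of the cloud is shared.

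How common each pattern was among other genes was described by the distance between the pairs of log2 differences (siRNA array 1 and siRNA array 2, each minus scrambled), over 12171 genes with signals above 97.2 on all 3 arrays. The pattern of TYR was common, with 597 genes within a distance of 0.25. The nearest to TYR were the homeobox gene HOXC8, the phosphate transporter gene SLC34A3, ALKBH4, the lysosomal alpha-galactosidase gene GLA and the semaphorin gene SEMA4F, all within 0.018 and none called (limma adjusted p from 0.0785 to 0.302). Among the compared genes the pattern of TYRP1 was rare, with 0 genes within 0.25, 1 within 0.5 and 8 within 1. Genes that fell to 97.2 or below on a siRNA array were not among those compared. The nearest was the ubiquitin ligase gene MARCHF4, at a distance of 0.33, with signals of 3106.5 (scrambled), 244.8 and 537.2. The vesicular glutamate transporter gene SLC17A6 followed at 0.52, LYPD1 at 0.56, the long non-coding RNA gene LINC00698 at 0.62 and the sulfotransferase gene SULT1C2 at 0.62. Of these 5, all but SLC17A6 (limma adjusted p = 0.0613) were called. None of the 5 nearest to either enzyme is in the pigment lists used here. The distances rest on 3 arrays, and the 2 differences share the scrambled array.

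The other genes of the pathway were taken from 6 lists without TYR and TYRP1, covering 82 genes, of which 72 were tested. Of these 72, 4 rose and 1 fell, with a median log2 difference of 0.058, against 1.50% of all genes called higher, 1.14% called lower and a median of 0.097 over all genes. A further 16 had an unadjusted p under 0.05 without passing. With the called genes this made 21 of the 72, where 5511 of the 27306 tested probe sets had such a p. The first count is of genes by brightest probe set and the second of probe sets, so the shares differ in unit. None of the 72 differed by as much as TYRP1 (-2.75), since the lists ranged from -2.15 to 2.02.

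Receptors and signalling genes upstream of pigmentation had the highest median of tested genes, 1.02 over 8 of 12 (0.82 and 1.22 on the single siRNA arrays). Of the 8, 3 rose and 0 fell. Without the filter, which also counts the dim genes, the median of this list was 0.26. That was below the medians of the transporter list (0.27) and the folding and copper supply list (0.30) without the filter. TRPM1, a melanocyte cation channel gene whose intron holds a microRNA regulated with it, had signals of 1053 (scrambled), 4968 and 3933 (log2 difference 2.02 ± 0.26, SE; limma adjusted p = 0.0228). EDNRB, an endothelin receptor gene, rose by 1.49 (limma adjusted p = 0.0383) and ERBB3, a neuregulin receptor gene, by 1.40 (limma adjusted p = 0.0436). Of the EDNRB probe sets 2 of 3 were called, and as their mean it differed by 1.35 (limma adjusted p = 0.0519). For ERBB3 1 of 4 tested probe sets was called, the lowest being 0.60. The mean of all 5 of its probe sets, 1 of them not tested, differed by 0.86 (limma adjusted p = 0.161). MC1R, the melanocortin receptor that raises cyclic AMP and with it TYR expression, read 716.9 against 1289 and 1681 (difference 0.99 ± 0.29, SE; limma adjusted p = 0.121). ADCY2, an adenylyl cyclase gene, differed by 1.04 (limma adjusted p = 0.104), and GNAS, the stimulatory G protein subunit gene, by -0.15 (limma adjusted p = 0.675), or 0.14 as the mean of its probe sets.

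Lineage transcription factors had a median of -0.18 over 13 tested genes of 16, with 0 higher and 1 lower. The gene that fell was POU3F2, a POU domain factor linked to dedifferentiated melanoma, with signals of 10348 (scrambled), 1995 and 2626 (difference -2.15 ± 0.25, SE; limma adjusted p = 0.0198). Its other probe set, which also passed, differed by -1.84. MITF read 52684 against 42992 and 34223, a difference of -0.46 ± 0.19 (SE; limma adjusted p = 0.236), and its 3 probe sets lay between -0.71 and -0.46 with none called. TFAP2A, an AP-2 factor gene, read 19492 against 11340.1 and 11504 (difference -0.77 ± 0.19, SE; limma adjusted p = 0.0805, or 0.0170 with arrays centred). PAX3 differed by -0.73 in its brightest probe set and by up to 0.24 in others, CREB1 by -0.42 and SOX5 by 0.84, all short of the threshold. SOX10, which works with MITF on pigment genes, differed by 0.030 (limma adjusted p = 0.957).

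No transporter gene of the melanosome was called. Among these genes, whose products set the ion, amino acid and copper balance of the organelle, 0 of 8 tested passed limma (1 at an unadjusted p under 0.05), with a median of 0.16. TPCN2, an ion channel gene that affects melanosome pH, differed by 0.83 and the copper pump gene ATP7A, which loads TYR with copper, by 0.68, with -0.42 in its other probe set. The cystine exporter gene CTNS differed by 0.53 and the melanosome receptor gene GPR143 by 0.27. OCA2 and SLC45A2, transporter genes mutated in albinism and named after their values were seen, differed by -0.046 and 0.050. SLC24A5 was not analysed here.

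Structural genes of the melanosome had a median of 0.13, and 0 of 6 passed limma in the brightest probe set (1 at an unadjusted p under 0.05). PMEL, the protein of the fibrils on which melanin is laid down, had signals of 63858 (scrambled), 60940 and 65576 (difference -0.015 ± 0.15, SE; limma adjusted p = 0.972). MLANA read 61769 against 63275 and 69169 (difference 0.099 ± 0.16, SE; limma adjusted p = 0.780, and -0.071 with arrays centred). For PMEL the siRNA signals lay on both sides of the scrambled signal, and for MLANA both lay above it. TSPAN10 differed by 0.59, GPNMB by 0.53 (1.08 in a second probe set, which passed), and BACE2 by 0.15 (-0.017 with arrays centred and -0.16 as the mean of its probe sets).

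Cargo trafficking genes, which deliver TYR and TYRP1 from endosomes to melanosomes, had a median of 0.038, and 0 of 26 tested passed limma in the brightest probe set (7 at an unadjusted p under 0.05). HPS4, part of an exchange factor for melanosomal RAB proteins, differed by 0.81 and BLOC1S3, a subunit of the BLOC-1 sorting complex, by -0.81. The syntaxin gene STX12 differed by 0.72, and VPS41 by 0.51 in its brightest probe set and by 1.48 in another, which passed. Genes for the folding of TYR in the endoplasmic reticulum and for its copper supply had a median of 0.30 over 11 genes, with 1 higher and 0 lower. PDIA3, a disulfide isomerase of the calnexin cycle, had signals of 3283 (scrambled), 8654 and 6973 (difference 1.23 ± 0.23, SE; limma adjusted p = 0.0485). This was the highest of its 3 probe sets and the only 1 called, the lowest being 0.35. Their mean differed by 0.75 (limma adjusted p = 0.137). HSPA5 differed by 0.63, GANAB by 0.42, the calnexin gene CANX by 0.34 and the glycoprotein folding sensor gene UGGT1 by 0.27. With arrays centred the medians of the transporter, structural and trafficking lists were below 0, at -0.012, -0.044 and -0.13.

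**Figure D3:**
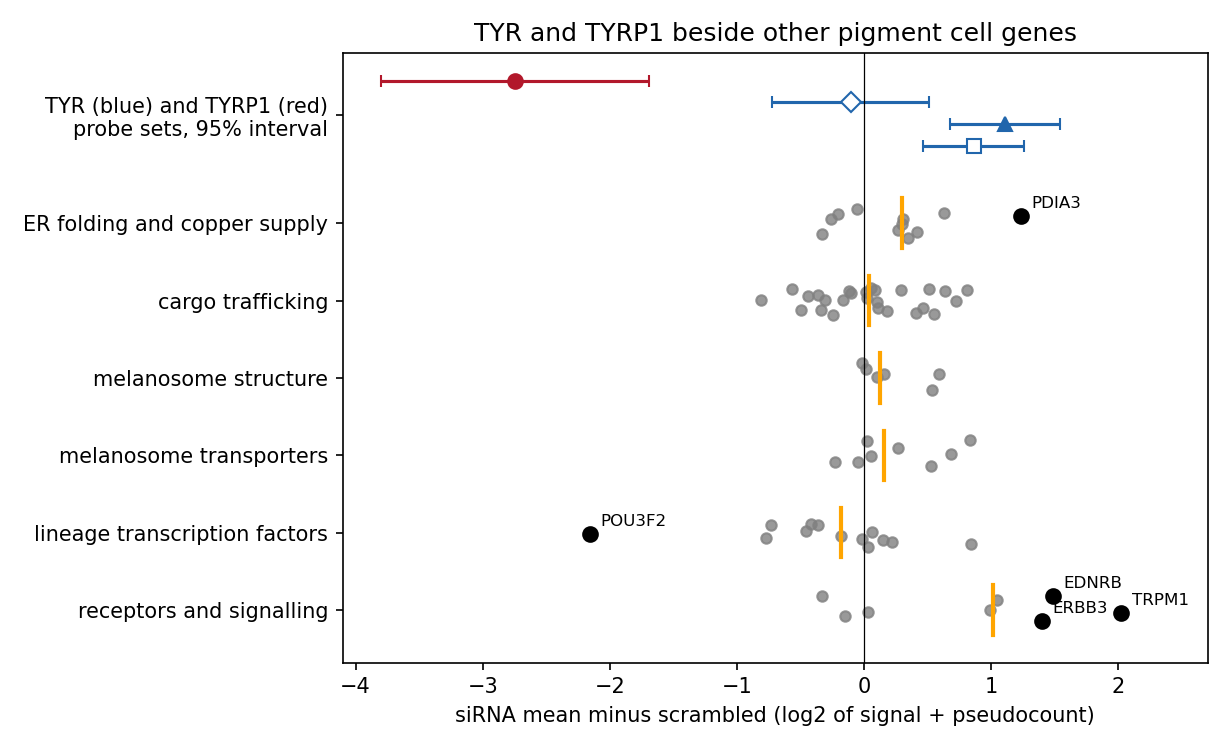
Log2 difference (siRNA mean minus scrambled) of each tested gene in 6 lists of pigment cell genes, 1 point per gene by its brightest probe set, black and named where called and grey otherwise, with orange bars at list medians, and above them the TYR (blue) and TYRP1 (red) probe sets with 95% intervals, filled where called. TYRP1 at -2.75 lies to the left of every listed gene, including POU3F2 at -2.15, and 5 of the 72 listed genes were called.

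The melanocytic label of the cells was checked against markers. All 6 melanocyte markers (MLANA, PMEL, SOX10, S100B, MITF and EDNRB) were above the highest bacterial control on every array, with a summed signal of 220807 (scrambled), 212541 and 230600 (siRNA). The sum of 6 fibroblast markers was 1757 in scrambled and 5666 and 5883 in siRNA cells. LUM, a proteoglycan gene, made up most of the rise (598.6 against 4850 and 4841; limma adjusted p = 0.00719). The other tested fibroblast markers, COL1A1 (671.9 against 487.9 and 565.1) and DCN (256 against 139.9 and 301.3), were not called. COL1A2, not tested, read 136.2, 119.8 and 86.2. On the 3 arrays 2, 2 and 3 of the 6 were at or below the control level, PDGFRB and COL3A1 among them. Epithelial markers summed to 15009.6, 10479 and 9017, nearly all of it KRT10, and KRT14, CDH1 and EPCAM were at or below the control on every array. KRT5 read 134.4, 80.6 and 222.1, and KRT1 read 36.3, 98.6 and 120.1. Of 3 leukocyte markers PTPRC and CD14 were at or below it on every array, while CD3E was above it (170.7, 146.6 and 129). Endothelial markers summed to 489.1, 409.2 and 703.5. PECAM1 (228.2, 284.8 and 459.5) was above the control on every array, and CDH5 was at or below it on every array. VWF read 207, 50.2 and 72.4, and KDR read 43.7, 64.1 and 156.6. No marker was listed at 0, and the part of LUM-expressing cells in the TYR and TYRP1 results was not tested.

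**Figure D4:**
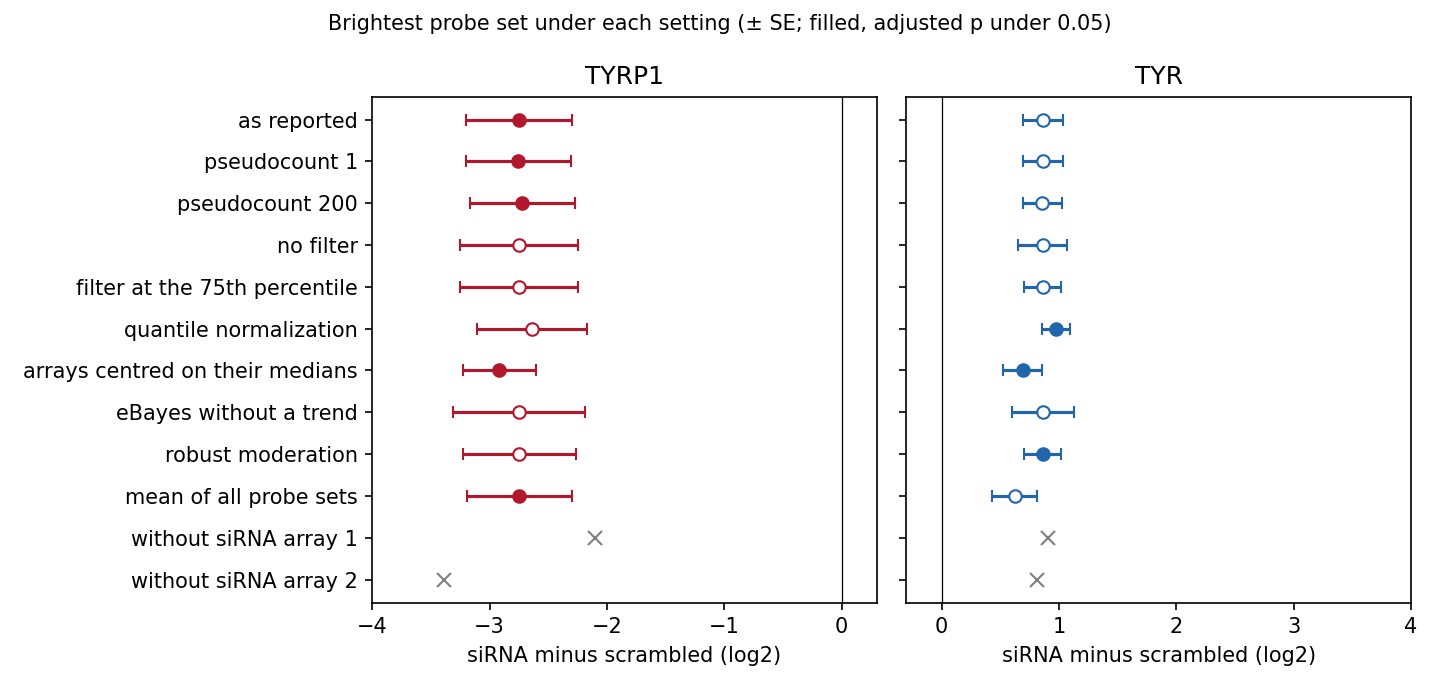
Log2 difference (siRNA minus scrambled, ± SE) of the brightest probe set of TYRP1 (left, red) and TYR (right, blue) as reported and under each alternative setting, filled where adjusted p was under 0.05 and open otherwise, with grey crosses for a single siRNA array, which allows no test. TYRP1 stayed between -3.39 and -2.10 and the brightest TYR probe set between 0.69 and 0.98. The setting that averages all probe sets of a gene gave 0.62 for TYR, so that the settings moved the calls and not the directions.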

How the data were processed

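The 3 arrays carry deposited intensity values, 1 per probe set, made with GCOS 1.3 per the submitters' processing notes. The scaling target was not given in the sources used here. The table held 54675 probe sets, 62 of them controls that were left out, and 0 columns of other samples. Annotation named 1 gene for 41091 probe sets, several for 1801 and none for 11721. Signals were analysed as log2(signal + 47.4), the pseudocount being the 25th percentile, with limma 3.58.1 in R 4.3.3 (lmFit, eBayes with a trend, 1 residual and 6.36 prior degrees of freedom). The spread of the siRNA arrays was taken to hold for the single scrambled array. Probe sets above the median mean (7.74) were tested and adjusted together by Benjamini-Hochberg, two-sided. The script was tested on simulated data. A gene was represented by its brightest probe set. Named were all probe sets of MELTF, TYR and TYRP1, and in each list the called genes and up to 4 others with the largest smaller-of-2 difference of the same sign on both arrays, and the 5 genes nearest to each enzyme among those above 97.2 on all arrays. MITF, SOX10, PMEL (all 3 also in the marker list), OCA2 and SLC45A2 fall outside this rule and were named after their values were seen. The members and lists were chosen with earlier results of these data known. Alternatives covered pseudocount, filter, normalization, moderation, probe set averaging and single arrays. DCT and protein sequences were not analysed here.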

Additional observations from a re-analysis of the deposited data

Results flagged for a closer look

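The 6 control probe sets for ribosomal RNA enter no comparison. Their median ratio to the scrambled array was 3.76 on siRNA array 1 and 1.06 on the other. TYRP1 was lower on the first of these arrays than on the second (5022 against 12370.0), and the part of the ribosomal RNA signal in this was not tested.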

How the results depend on the processing

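The directions of TYRP1, of the brightest TYR probe set and of TYRP1 relative to TYR were the same under every alternative run. With 1 siRNA array left out, which allows no test, TYRP1 ranged from -3.39 to -2.10, TYR from 0.81 to 0.91, MELTF stayed at -0.78 and TYRP1 minus TYR ranged from -4.21 to -3.01. The call of TYRP1 (-2.75) was lost with no filter (-2.75), the 75th percentile filter (-2.75), no trend (-2.75), with robust moderation (-2.75) and with quantile normalization (-2.64). TYR gained a call with quantile normalization (0.98), centred arrays (0.69) and robust moderation (0.86). MELTF gained one with centred arrays (-0.95). Of the 4 TYR and TYRP1 probe sets, 0 were called by limma without a filter, with the 75th percentile filter or without a trend, although all but 1555504_at had an unadjusted p under 0.05 there. Over all probe sets 571 were called (324 higher, 247 lower), against 1 without a filter, 9 with the 75th percentile filter, 360 with quantile normalization, 1 without a trend and 1528 with centred arrays (594 higher, 934 lower). The median tested probe set differed by 0.11 as deposited, 0.00080 after quantile normalization and -0.063 after centring. Of the pigment lists 5 genes were called, against 3 with pseudocount 200, 3 with quantile normalization, 8 with centred arrays, and 0 without a filter, with the 75th percentile filter or without a trend. Signs turned, with no call, for GNAS with probe sets averaged (0.14), MLANA with centred arrays (-0.071) and BACE2 with centred arrays (-0.017) and with probe sets averaged (-0.16). That of TYR 1555504_at (-0.11) also turned with siRNA array 2 left out (0.069), which allows no test. For the other named genes and TYR probe sets, 27 of 327 values lost a call and 1 (TFAP2A, centred arrays) gained one. Most of the 327 belong to results that had no call to lose. The losses fell on PDIA3 (7 lost, 4 the same), ERBB3 (6 and 5) and EDNRB (4 and 7). They also fell on TRPM1 (4 and 7), POU3F2 (3 and 8) and TYR 1555505_a_at (3 and 7). Values counted as the same include single arrays, which allow no test. The cause of these changes was not tested. Quantile normalization and single arrays for TYRP1 minus TYR, and all alternatives for MELTF and single genes, were added after the data were seen. No paired analysis was possible because the groups share fewer than 2 replicate numbers. DCT was not analysed here, and counts of calls with 1 siRNA array left out were not run, since no residual degree of freedom remains.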

Other observations

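The promoter motif shared by TYR and TYRP1 was set beside the expression of other genes, a comparison chosen after the data were seen. Of 10096 tested genes with a RefSeq promoter window, 274 held TCATGTG, of which 3 rose and 6 fell by limma, or 3.28% called against 2.59% of all 10096 (147 higher, 114 lower). Their median log2 difference was 0.11, against 0.094 for all. Of 1026 genes with CATGTG 26 rose and 16 fell (4.09% called), and of 1289 with CACGTG 12 rose and 16 fell (2.17%). Whether these shares differ from that of all genes was not tested. Upstream of the start, 1.15% of all windows held CATGTG at least 2 times, as TYR and TYRP1 do.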
